A study of Mus musculus with 122 samples.

Results

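The boundaries described here separate neighbouring chromatin domains in mouse embryonic stem cells, are called when endogenous CTCF is present, are not called after its depletion and are called again once a CTCF transgene is switched on. They were chosen from the domain lists that the HiCratio caller gave at 40 kb resolution. The middle of a gap of up to 40 kb between neighbouring domains counted as 1 boundary, and wider gaps gave both edges. Of the 2976 boundaries in untreated cells of the CTCFL line, 659 (22.1%) had a boundary within 40 kb in untreated and in CTCF-rescued cells of the CTCF line and none within 40 kb in the depleted cells of either line. These 659 are called restored boundaries below. Presence in those 5 lists was the criterion and is therefore a description, not a finding.

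All cells were E14Tg2a embryonic stem cells whose endogenous CTCF carries an auxin-inducible degron and eGFP, with the TIR1 ubiquitin ligase subunit at Rosa26 and a doxycycline-inducible, FLAG- and mRuby2-tagged transgene at Tigre. The 4 transgenes were CTCF, its paralogue CTCFL, CLC (N and C termini of CTCF around the zinc fingers of CTCFL) and LCL (the reverse: termini of CTCFL, zinc fingers of CTCF). Cells were untreated (U), given the auxin IAA to degrade endogenous CTCF (I), given doxycycline to express the transgene (D), or given both (ID). Sample labels give 24 h for each treatment, whereas the treatment protocol gives 2 days for RNA and ChIP and 4 days for Hi-C. Each line is 1 clone, so transgene and clone cannot be told apart, and ID against I compares the transgene together with doxycycline. There were 12 Hi-C domain lists, 1 per condition, with no U or I list for the CLC and LCL lines. FLAG and RAD21 peaks came from 2 replicates of D and ID cells of each line. RNA came from 38 libraries, with 2 or 3 in each of 16 groups. The labels of all CLC and LCL RNA libraries carry 2i and those of the CTCF and CTCFL lines do not, although the paper describes the same medium for all clones. Summed primitive endoderm markers were 584 to 624 in CLC U and 602 to 636 in LCL U. They were 5430 to 5620 in CTCF U and 5910 to 6750 in CTCFL U. RNA differences between these pairs of lines cannot be told apart from whatever the label stands for. Nothing in the labels says that replicates are separate cultures, so p-values cover only the spread between these libraries.

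Cohesin extrudes loops of chromatin until it meets bound CTCF, and it is stopped mainly by CTCF whose motif points towards the inside of the loop. Contacts then accumulate inside domains and drop across their boundaries, where CTCF and the cohesin subunit RAD21 are typically found. CTCFL shares the zinc fingers that read the CTCF motif but has different termini and is normally made only in male germ cells.

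FLAG sites of CTCF ID were peak regions present in both replicates, and 931 of them lay within 20 kb of a restored boundary. Most, but not all, held a match to the CTCF core motif near the summit (shares are given with the motifs). The sequences below show, in the orientation of the motif, the best match in the strongest site at each of 6 boundaries with the highest −log10 q and at 4 boundaries beside genes described later. They are from GRCm38, 5′ to 3′ on the strand given, and capitals mark the 14 bases of the core.
chr2:39373236-39373265 (minus): acatttggCCAGAAGAGGTCGCagcaacac
chr12:99084384-99084413 (plus): tcgcgcggCCACACGGTGGCGCtgccgcac
chr2:180251446-180251475 (minus): ccttgtcgCCACTAGGGGGCATccaagaac
chr11:61104479-61104508 (plus): ccagagtgCCACTAGGTGGCGCtagaggat
chr15:11972020-11972049 (plus): cttcctagCCACCAGGTGGTGCtgcaggac
chr10:56339282-56339311 (minus): agaatgtaCCACTAGAGGGAGGgagcatac
chr1:140171717-140171746 (plus), near Kcnt2: agtttcacACACTAGATGGTGCtaataccc
chr14:99932071-99932100 (plus), in Klf12: cacttccaCCTCTAGGTGGCAGcaactctc
chr5:4918556-4918585 (minus), in Cdk14: cagtctggACACTAGGGGGAGCagctgagt
chr6:82945934-82945963 (minus), near Sema4f: tgaagaggCCAGAAGAGGGCGCtggatcct

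The strongest of these sites, at chr2:39372811-39373853, had a −log10 q of 145 in replicate 1 and 116 in replicate 2, with 13.5-fold and 16-fold enrichment as given by the peak caller. It lay 6.67 kb from the middle of its boundary bin at chr2:39360001-39400000. Sites of CTCFL ID, LCL ID and CLC ID also overlapped it, yet a domain boundary was listed there in CTCFL ID only among these 3. The chr11, chr12 and chr15 sites likewise carried all 4 proteins, and their boundaries were listed in LCL ID only of the 3. The chr10 site, 0.627 kb from its boundary, carried CTCF and LCL but no CTCFL or CLC site, and the boundary was in none of the 3 lists. The weaker Kcnt2 site had a −log10 q of 31.8 and 9.27 and was overlapped by none of the other 3 proteins, while its boundary was listed in LCL ID. A site of a protein and a listed boundary in its ID cells thus went together at some of these places and not at others. The other 3 proteins were scored here only by whether a site overlapped, not by its strength.

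In the restored boundaries, CTCF U and CTCF ID each placed the boundary mostly in the same 40 kb bin as CTCFL U: 496 (75.3%) were in the same bin in CTCF U and 495 (75.1%) in CTCF ID, the others in the next bin. The nearest boundary in depleted cells was a median of 320 kb away in both CTCF I and CTCFL I. It was only 80 kb away, just past the limit, for 83 restored boundaries (12.6%) in CTCF I and 90 (13.7%) in CTCFL I. Just outside the rule were 448 boundaries with no depleted-cell boundary in the same bin but 1 in the next bin, and 26 lost in both I lists whose nearest CTCF ID boundary was 80 kb away. By the rule every restored boundary lay inside a domain of depleted cells, and choosing domains by a point inside them favours long ones. Those domains had a median length of 1200 kb in CTCF I and 1240 kb in CTCFL I, and 1200 and 1120 kb at boundaries lost in both and absent from CTCF ID. The domains flanking a restored boundary in CTCFL U had a median of 600 kb, a different measure. Over whole lists the median was 640 kb in CTCF I and CTCFL I and 600 kb in CTCFL U.

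Restored boundaries were spread over all chromosomes, from 14.4% of the boundaries on chromosome 18 to 29.8% on chromosome 12. A next boundary that was also restored was found for 304 (46.1%). With 22.1% of all boundaries restored and a neighbour on either side, many such pairs arise without clustering, which was not tested. The longest run had 5 consecutive restored boundaries on chromosome 2, between positions 155400001 and 157160000. The GC content of their bins had a median of 43.3%, against 43.1% for all boundaries. A protein-coding start site lay in the bin of 49.8% of the restored boundaries (95% Wilson interval 46% to 53.6%). This share was 61.3% (58.6% to 63.9%) among the 1269 boundaries found in all 5 lists of the rule, called resistant below, and 41.3% (35.2% to 47.7%) among the 235 lost in both I lists and absent from CTCF ID, called unrestored. These and later Wilson intervals cover counting error only, and the 3 classes were not compared by a test because there was 1 list per condition. Overlap of such intervals, or the lack of it, is not a test of a difference.

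A second caller placed domains with gaps of several bins between them, so each bin was scored by whether it lay between neighbouring Crane domains, a measure added after the data were seen. Of the restored boundaries, 85.6% lay between Crane domains in CTCFL U and 84.8% in CTCF U. The share was 47.2% in CTCF I and 43.4% in CTCFL I, and 84.1% in CTCF ID. Between 33.5% and 39% of the genome lay between Crane domains. By this caller the shares after depletion thus lay between those of untreated cells and that of the genome.

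A minority of the restored boundaries was listed in cells that expressed one of the other proteins after depletion. Those ID lists did not enter the rule, but absence from the I lists was set by it, and there is no I list for the CLC and LCL lines. Presence in an ID list therefore cannot be told apart from a boundary missed in the I lists. A boundary within 40 kb was present for 128 (19.4%, interval 16.6% to 22.6%) in CTCFL ID, 169 (25.6%, 22.5% to 29.1%) in CLC ID and 206 (31.3%, 27.8% to 34.9%) in LCL ID. Over all 2976 boundaries these shares were 55.8%, 59.7% and 61%, against 55% in CTCF I and 54% in CTCFL I. Between 11.4% and 11.8% of genome bins lay within 40 kb of a boundary in these 3 lists. The intervals of CTCFL ID and LCL ID did not overlap, and those of CLC ID and LCL ID did. All 3 shares are over the same boundaries, a pairing that the intervals ignore. The order did not carry over to the unrestored boundaries, with 9.79% in CTCFL ID, 5.96% in CLC ID and 6.81% in LCL ID. Resistant boundaries were listed for 89.4%, 93.9% and 93.7% in the same order. With endogenous CTCF present, 97.1% of the restored boundaries were in the CTCF D list, 93.8% in CTCFL D, 96.7% in CLC D and 92.9% in LCL D, and 573 (87%) were in all 4.

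**Figure D1:**
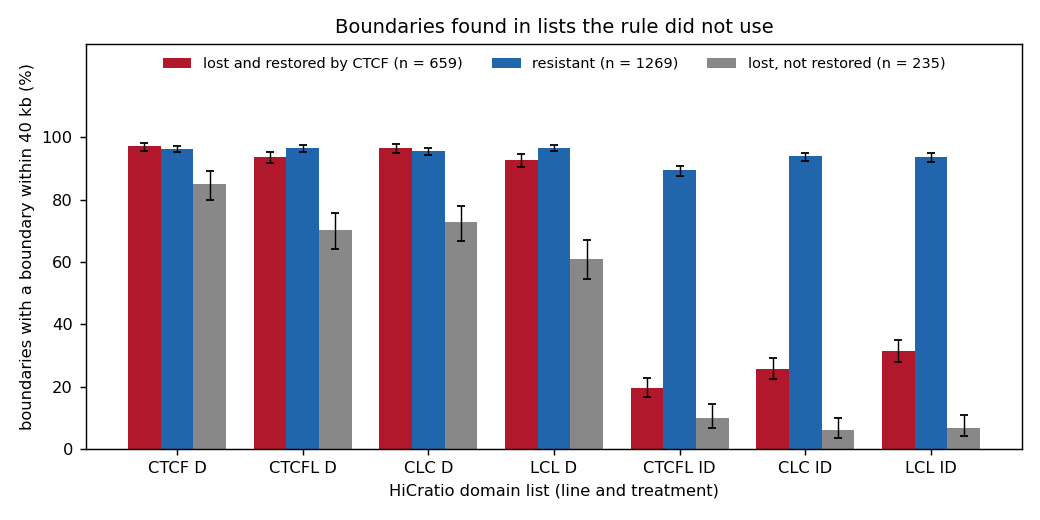
Percentage of restored, resistant and unrestored boundaries that had a domain boundary within 40 kb in each D and ID list that the rule did not use; bars are 95% Wilson intervals for counting error. The restored boundaries stayed at 92.9% to 97.1% in the D lists and fell to between 19.4% and 31.3% in the ID lists.

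Most restored boundaries, 379 (57.5%), were in none of the 3 ID lists, and 74 (11.2%) were in all 3. LCL ID alone held 71, CLC ID alone 36 and CTCFL ID alone 24. CLC ID and LCL ID shared 119 restored boundaries, which is 70.4% of those in CLC ID and 57.8% of those in LCL ID. LCL ID held 87 that CLC ID did not, and CLC ID held 50 that LCL ID did not. Retention was higher where a depleted-cell boundary lay within 120 kb. For those 179 boundaries it was 45.8% in LCL ID, 32.4% in CLC ID and 31.8% in CTCFL ID, and for the other 480 it was 25.8%, 23.1% and 14.8%. The part of imprecise placement of boundaries was not tested.

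Re-expressed CTCF was found at most restored boundaries. A FLAG CTCF ID site lay within 20 kb of 491 of them (74.5%, 71% to 77.7%), compared with 759 resistant boundaries (59.8%, 57.1% to 62.5%), 62.3% of all boundaries and 30% of all 40 kb bins. At unrestored boundaries the share was 67.2% (61% to 72.9%), an interval that overlaps that of restored boundaries. With peaks of replicate 1 alone, restored boundaries had 77.5% against 64.5% at resistant ones, and with replicate 2 alone 74.7% against 60.3%. Restored boundaries had a mean of 1.41 sites, and 278 (42.2%) had 2 or more. Resistant boundaries had a mean of 1.15 and unrestored ones 1.19, and 32.3% of each had 2 or more. The best site had a median −log10 q of 64.6 and 47 in replicates 1 and 2 at restored boundaries and 64.8 and 51.4 at resistant ones. At unrestored boundaries these medians were lower, 55.9 and 40.3. No site was called within 20 kb of 168 restored boundaries.

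Sites of the other proteins in ID cells were also more frequent at the restored boundaries than over all boundaries or over 40 kb bins. An LCL ID site lay within 20 kb of 68.6% (64.9% to 72%), a CTCFL ID site of 57.1% (53.2% to 60.8%) and a CLC ID site of 50.8% (47% to 54.6%). Over all boundaries these shares were 60.9%, 51% and 44.8%, and over 40 kb bins 30.6%, 25.4% and 19.9%. Resistant boundaries had 61.1%, 51.7% and 45.9%. In D cells the shares at restored and resistant boundaries were 66.2% and 57.4% for LCL, but 50.2% and 48.9% for CTCFL and 21.7% and 21.5% for CLC. The number of sites called differed between proteins, with 30317 in CTCF ID, 34698 in LCL ID, 25097 in CTCFL ID and 17876 in CLC ID. Of the 931 CTCF ID sites at restored boundaries, LCL ID sites overlapped 79.6% (76.9% to 82.1%), CTCFL ID sites 54.9% and CLC ID sites 48.2%. These values were close to those over all CTCF ID sites, 78.9%, 55.4% and 47.7%, and below those at resistant boundaries, 86.4%, 62.5% and 55.1%. Of the sites at restored boundaries 24.7% were at promoters, within 3 kb of a start site, against 35.1% at resistant and 21.4% at unrestored boundaries.

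**Figure D2:**
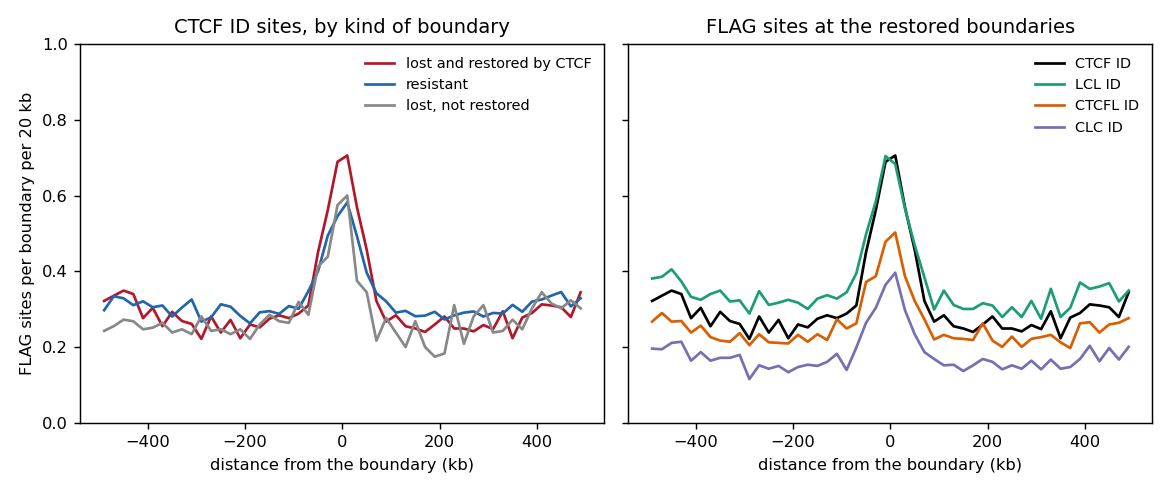
FLAG sites per boundary in 20 kb steps by distance from the boundary, for CTCF ID at the 3 classes of boundary and for the 4 proteins at the restored boundaries. CTCF ID sites at restored boundaries rose from 0.294 per 20 kb at 300 to 500 kb to 0.697 within 20 kb, a ratio of 2.37. The ratio was 1.8 at resistant and 2.17 at unrestored boundaries.

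Whether a protein had a site at a boundary was compared between listed and other boundaries. The share with its own site was larger at listed boundaries for LCL and smaller for CLC and CTCFL, with overlapping intervals in each case. An LCL ID site lay within 20 kb of 74.3% (67.9% to 79.8%) of the restored boundaries listed in LCL ID and of 66% (61.5% to 70.2%) of the others, and the median −log10 q of these sites in replicates 1 and 2 was 38.9 and 36.1 against 25.1 and 24.6. Where 2 or more CTCF ID sites carried LCL, 38.8% of the boundaries (32.5% to 45.5%) were listed in LCL ID, and 27.9% (22.2% to 34.3%) where 1 did, again with overlapping intervals. The same split gave 25.5% and 23.2% for CLC and 13.8% and 21.3% for CTCFL, each with overlapping intervals. For CLC the share with its own site was 48.5% at listed and 51.6% at other boundaries. For CTCFL it was 52.3% and 58.2%, with overlapping intervals in both cases. Boundaries without any CTCF ID site were listed about as often as the rest, 30.4% in LCL ID, 25.6% in CLC ID and 19.6% in CTCFL ID.

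RAD21 replicates differed so widely that each is given apart, and in cells that kept endogenous CTCF restored boundaries had the higher share in 6 of the 8 replicates. In replicate 1 of CTCF D, a RAD21 peak lay within 20 kb of 62.1% of restored, 48.3% of resistant and 48.9% of unrestored boundaries. In replicate 2 the shares were 19%, 14.7% and 14.9%. CTCFL D gave 60.8% at restored against 46.4% at resistant boundaries in replicate 1 and 0.607% against 1.18% in replicate 2. LCL D gave 18.4% against 15.5% and 44.9% against 37.7%, and CLC D 5.46% against 4.33% and 29.3% against 30.7%. In CTCF ID the shares at restored boundaries were 22% and 3.95%, from 8593 and 784 peaks. They were 18.8% in replicate 1 of CTCFL ID, 14.1% in LCL ID and 4.7% in CLC ID. In replicate 2, CLC ID gave 1.52%, LCL ID 0.303% and CTCFL ID 0 of 659, which allows a share of up to 0.455% (3 counts). The resistant boundaries had 20.7%, 16.3%, 14.9% and 6.86% in replicate 1 of the CTCF, CTCFL, LCL and CLC lines after ID treatment. Peak totals in replicate 1 fell in the same order, to 5821, 4847 and 2470 in the last 3. Depth of the ChIP libraries is unknown, so a lower share cannot be told apart from a less sensitive library.

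Motif content and orientation at the restored boundaries were like those of boundaries in general. A match to the CTCF core motif on either strand lay within 50 bp of the summit in 66.2% (63.1% to 69.1%) of the 931 sites. The share was 64.2% for sites at all boundaries, 60.4% for all CTCF ID sites and, by construction of the threshold, 5% for control windows 1000 bp away. Of 1901 matches within 100 kb of a restored boundary, 1250 (65.8%, 63.6% to 67.9%) read away from the boundary into the adjoining domain, against 65.3% over all boundaries. Within 20 kb this share was 57.7%, against 57.9%. A reverse match on the left and a forward match on the right, the divergent arrangement, occurred at 69.5% of the restored boundaries with matches on both sides within 100 kb and at 69% of all such boundaries. Among the sequences printed above, those at chr2, chr11 and chr10 read away from their boundaries, and those at chr12, chr15, Kcnt2, Klf12, Cdk14 and Sema4f read towards them. A match describes letters and is not by itself a binding site.

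RNA changes were counted for genes with an annotated transcript start within 100 kb of a restored boundary. Values are gene counts divided by a size factor, called normalized counts, and changes are on the log2(normalized count + 1) scale, which understates changes of low genes. A call needed an adjusted p under 0.01 and a log2 change past 1 in limma, with Benjamini-Hochberg adjustment over all genes tested. In bulk RNA, fewer cells of a type and less RNA per cell cannot be told apart. Library depth, recovered for 36 of the 38 libraries, was 6847072 to 49716771 reads. Ctcf RNA did not pass the test in I against U (−0.09 in the CTCF line, −0.06 in the CTCFL line), and since IAA acts on the protein it is no check of depletion. Ctcfl was higher in ID than I by 4.78 ± 0.12 (SE) in the CTCFL line, 5.33 ± 0.22 in LCL and 5.16 ± 0.15 in CLC, and by an uncalled 0.57 ± 0.18 in the CTCF line. Ctcf was uncalled in ID against I of the CTCF line (−0.12 ± 0.06, adjusted p = 0.15). The CTCF transgene was thus not seen as a rise in Ctcf RNA. In I against U, Ctcfl was called lower in the CTCF line (−1.56 ± 0.2, adjusted p = 4.3e-05) and was uncalled in the CTCFL line (−0.06 ± 0.1).

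Depletion changed 189 of 1320 tested genes near restored boundaries in the CTCF line (14.3%, 77 higher and 112 lower), against 10.9% of all genes tested. In the CTCFL line it changed 166 of 1341 (12.4%, 47 higher and 119 lower), against 9.58%. Over all genes 5% were higher and 5.92% lower in the CTCF line, and 3.69% and 5.88% in the CTCFL line, so the excess over the background was mainly in genes that fell. Near resistant boundaries the called shares were 8.84% and 8.12%. Near unrestored boundaries they were 10.7% in the CTCF line and 11.9% in the CTCFL line, the latter close to the 12.4% near restored ones. The depleted libraries of the lines are separate, and 87 genes near restored boundaries were called lower in both, which is 77.7% of the CTCF line's and 73.1% of the CTCFL line's list. Called higher in both were 29, or 37.7% and 61.7%, and no gene was called in opposite directions. Over all genes the shares of the CTCF and CTCFL lists called in both lines were 69.6% and 69.4% for lower calls. For higher calls they were 40.2% and 54%. Shares fell with distance, unevenly: 17.1% of genes were called at 0 to 20 kb, 10.4% at 20 to 40 kb, 14.3% at 40 to 100 kb and 10.7% at 100 to 200 kb in the CTCF line.

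Gene length went with the direction of change. The genes near restored boundaries that fell had a median span of 204 kb in the CTCF line and 265 kb in the CTCFL line, and the boundary lay inside the gene for 46 (41.1%) and 52 (43.7%). Those that rose had medians of 13.4 and 15 kb, and the boundary lay inside 10.4% and 8.51% of them. A longer gene more readily contains a nearby boundary, and these shares were not compared at like length. All tested genes near restored boundaries had a median of 23.7 and 24 kb, and 16.5% and 16.7% spanned over 100 kb, against 11.6% and 11.9% of all genes. Among genes over 200 kb, the shares called lower near restored boundaries and over all genes, which include them, were 54.4% (56 of 103) against 55% in the CTCF line, and 64.2% (70 of 109) against 63.6% in the CTCFL line. At 100 to 200 kb they were 16.5% against 20.1% and 25.2% against 24%. Shorter genes were called lower less often, in the CTCF line 5.46% against 3.86% at 50 to 100 kb, 4.04% against 2.77% at 20 to 50 kb and 2.35% against 1.98% up to 20 kb. In the CTCFL line these were 2.65% against 4.12%, 1.85% against 1.48% and 1.49% against 1.04%. The differences were not tested. Long genes have more start sites that can fall within 100 kb of a boundary, and the part of this in the counts was not tested.

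**Figure D3:**
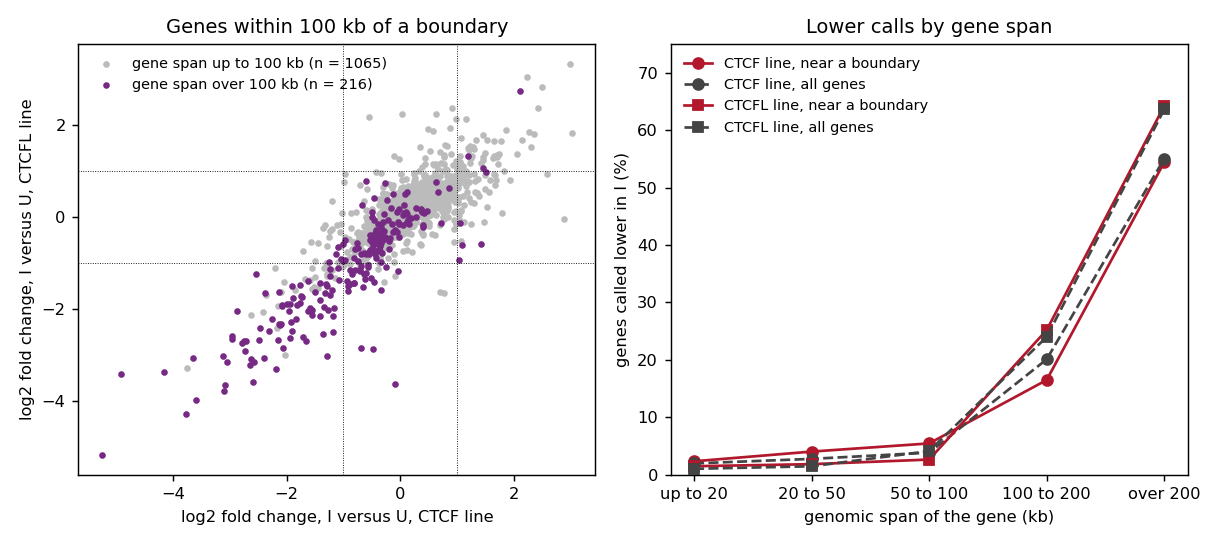
Left, log2 change of I against U in the CTCF line (x axis) and the CTCFL line (y axis) for genes with a start site within 100 kb of a restored boundary, with genes spanning over 100 kb in purple. Right, percentage of genes called lower in I by gene span, near restored boundaries and over all genes; over 200 kb the near and overall shares were 54.4% and 55% in the CTCF line.

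Kcnt2, encoding a sodium-activated potassium channel, fell furthest of the genes called lower in both lines when ranked by the smaller of the 2 changes. It lies at chr1:140246158-140612067 on the plus strand with its nearest start 66.2 kb from the boundary at chr1:140160001-140200000. Its normalized counts in the CTCF line were 148 and 256 in U, 4.84, 5.68 and 2.51 in I, and 2.41, 10.6 and 4.54 in ID. In the CTCFL line they were 136, 164 and 151 in U, 8.39, 2.99 and 0.91 in I, and 1.09 and 3.02 in ID. U and I did not overlap in either line, and ID overlapped I in both. The change on depletion was −5.25 ± 0.47 (adjusted p = 1.2e-06) and −5.18 ± 0.54 (9.9e-08).

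Ryr2, the calcium release channel of muscle cells, spans 554 kb and its start lies 33.1 kb from a restored boundary that has no CTCF ID site within 20 kb. It went from 301 and 360 in U to 36.8, 20.4 and 16.8 in I in the CTCF line, and CTCF ID gave 3.62, 5.87 and 21.2. The change was −3.76 ± 0.5 in the CTCF line and −4.3 ± 0.3 in the CTCFL line. Klf12, a Krüppel-like transcriptional repressor, and Cdk14, a cyclin-dependent kinase, each have a restored boundary inside the gene. Klf12 was 89.3 and 160 in CTCF U and 5.81, 12.5 and 10.1 in CTCF I (−3.58 ± 0.53, and −3.98 ± 0.6 in the CTCFL line). Cdk14 was 34 and 58.6 in CTCF U and 0, 0 and 2.51 in CTCF I (−4.91 ± 0.67, and −3.43 ± 0.54). Neither passed the test in ID against I in any of the 4 lines, with changes of −1.21 to 1.56 for Klf12 and 0.21 to 2.8 for Cdk14.

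Ppa2, a mitochondrial pyrophosphatase, was the only named gene called in ID against I in all 4 lines. Its start lies at chr3:133310110, inside the CTCF ID site at chr3:133309607-133310401 that sites of LCL ID, CTCFL ID and CLC ID also overlapped. In the CTCF line it was 1090 and 793 in U, 62, 77.2 and 66.2 in I and 174, 224 and 210 in ID. It was 603 and 596 in CTCFL ID, 819 and 706 in LCL ID, and 275 and 182 in CLC ID, with 62 to 95.9 in I over the 4 lines. The change of ID against I was 1.55 ± 0.14 for CTCF, 2.78 ± 0.14 for CTCFL, 3.41 ± 0.13 for LCL and 1.51 ± 0.19 for CLC, all called. ID lay above I and below U in every line. Its boundary, at chr3:133280001-133320000, was listed in CTCF ID by the rule and in none of the other 3 ID lists.

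Iqgap2, a scaffold protein of the cytoskeleton, also rose in ID with some proteins. It went from 1690 and 1800 in CTCF U to 206, 204 and 186 in I, and 181, 225 and 227 in CTCF ID did not differ from I beyond their spread (0.08 ± 0.1, adjusted p = 0.58). It rose in CTCFL ID to 1130 and 1200 (2.26 ± 0.11), in LCL ID to 508 and 677 (3.34 ± 0.22) and in CLC ID to 287 and 301 (2.5 ± 0.16). Its boundary, 88.1 kb from the start, was listed in none of these 3.

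The other named genes, among the 87 called lower in both lines, were Syt1, the calcium sensor of synaptic vesicles, Elmo1, an adaptor in Rac activation, Dpp6, a potassium channel subunit, Prkce, protein kinase C epsilon, Diaph3, an actin-nucleating formin, and Cadps2, a vesicle priming factor. They changed by −2.74 to −4.15 and span 486 to 910 kb. Of these 6, ID against I was called for Elmo1, lower in the CTCF line (−1.21 ± 0.21) and higher in LCL (1.36 ± 0.21), for Prkce in LCL (1.63 ± 0.42), for Diaph3 in CLC (1.34 ± 0.16), and for Cadps2 in LCL (2.06 ± 0.6) and CLC (1.61 ± 0.27). Syt1 was below the level tested in LCL and CLC, and Dpp6 was called in none.

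The 12 named among the 29 genes called higher in both lines span 1.11 to 52.8 kb. D630029K05Rik, a long noncoding RNA, rose most by the same ranking, from 5.32 and 1.1 in CTCF U to 23.2, 36.4 and 25.2 in I, or 2.98 ± 0.56, and by 3.35 ± 0.76 in the CTCFL line. Gm4971, a processed pseudogene whose reads may be shared with its parent gene, was 24.5 and 24.3 in CTCF U and 156, 150 and 122 in I, and 45.8, 41.1 and 48.4 in ID. It was the only one of the 12 genes named here as higher for which CTCF ID against I was called (−1.63 ± 0.26). Neurl3, an E3 ubiquitin ligase, rose by 2.22 ± 0.36 and 3.05 ± 0.63, and Fam43b by 1.86 ± 0.25 and 1.9 ± 0.51. Dlx2, a homeobox transcription factor, Eef1a2, a translation elongation factor, Sec14l5, Crhr2, a receptor for corticotropin-releasing hormone, Fam124a and 1700088E04Rik rose by 1.36 to 2.29.

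**Figure D4:**
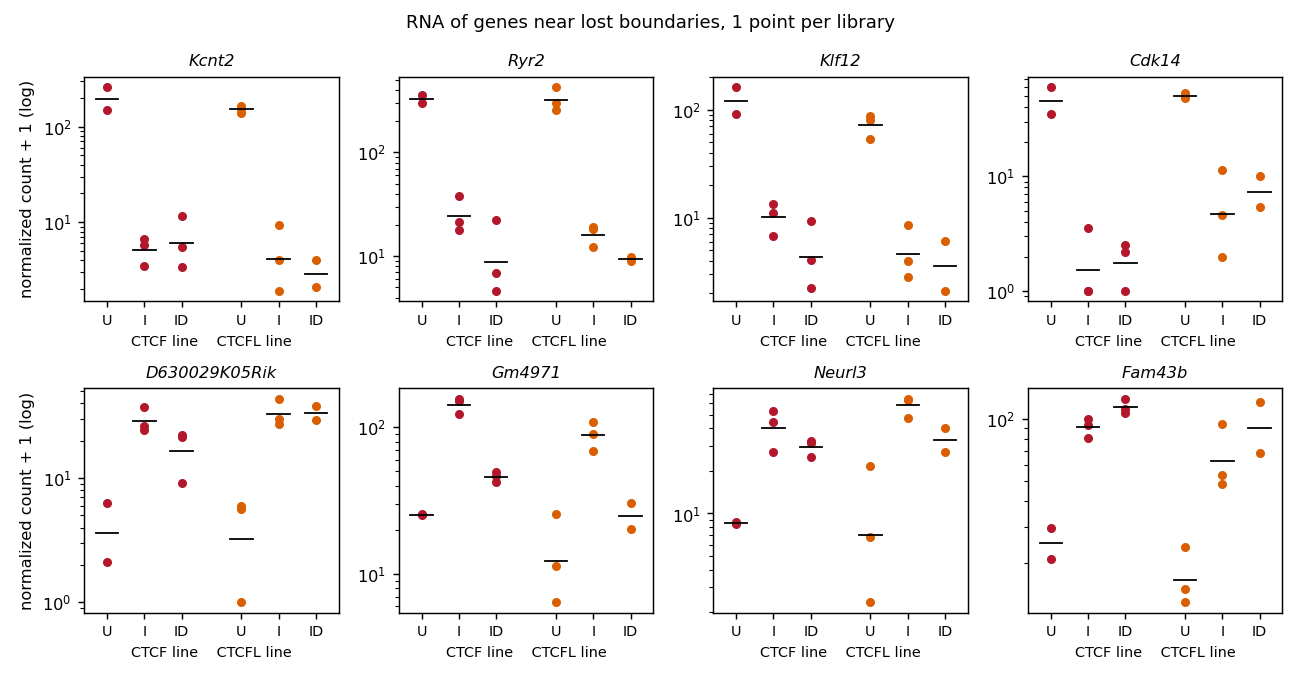
Normalized counts plus 1 on a log axis in each U, I and ID library of the CTCF and CTCFL lines for 4 genes that fell and 4 that rose on depletion near restored boundaries; lines are geometric means. Kcnt2 stood at 148 and 256 in CTCF U and 2.51 to 5.68 in CTCF I, and at 2.41 to 10.6 in CTCF ID.

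Sema4f, a semaphorin, starts 0.231 kb from the middle of a restored boundary whose CTCF ID site had a −log10 q of 102 and 96.8. It rose from 85.1 and 90.6 to 312, 276 and 319 in CTCF I (1.77 ± 0.13). CTCF ID, at 251 to 257, was uncalled against I (−0.24 ± 0.12), whereas LCL ID fell from 708 and 730 to 265 and 350 (−1.23 ± 0.16). Stra8, which germ cells need to enter meiosis, had the highest normalized counts of these 12 genes. It went from 2310 and 2110 in CTCF U to 7080, 7370 and 7630 in I and 5390, 5150 and 5420 in ID, and from 3870 to 3990 in CTCFL U to 9560 to 11200 in I and 18900 and 20200 in ID. The size of ID against I, −0.47 ± 0.07 and 0.94 ± 0.07, stayed below the limit of 1 in each line, and the difference between the lines did pass (−1.41, adjusted p = 2.8e-09).

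When CTCF was re-expressed, the share of genes called near restored boundaries was close to that of all genes and to the 5.28% near resistant boundaries. In CTCF ID against I, 78 of the 1320 were called (5.91%, 16 higher and 62 lower), against 5.06% of all genes (1.76% higher and 3.3% lower). The 62 that were lower had a median span of 135 kb. CTCFL ID against I gave 114 (8.5%, 62 higher and 52 lower) against 7.83% (3.94% and 3.89%). LCL ID gave 130 of 1221 (10.6%, 67 and 63) against 8.49% (4.04% and 4.45%). CLC ID gave 33 of 1229 (2.69%, 23 and 10) against 1.95% (1.15% and 0.795%). That last count rests on single libraries: it was 11 without CLC ID replicate 1, 10 without CLC ID replicate 2 and 65 without CLC I replicate 1. The depleted libraries are shared by I against U and ID against I within a line, so the 2 sets of calls are not independent. The change of ID against I differed between the CTCF and CTCFL lines for 54 of 1338 genes near restored boundaries (4.04%, 8 more positive and 46 more negative in the CTCF line), against 3.24% of all genes (1.04% and 2.19%). Among genes whose nearest restored boundary was listed again, 10.3% were called in LCL ID against I, 3.12% in CLC ID and 8.19% in CTCFL ID. Where it was not listed, the shares were 10.8%, 2.49% and 8.58%.

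Of the gene groups examined, few had members near restored boundaries. No tested gene of loop extrusion, the clustered protocadherins or the Hox clusters lay within 100 kb. Over the genome, 5 of 6 tested protocadherins fell in the CTCF line and 2 of 7 in the CTCFL line, and 7 of 27 and 2 of 30 Hox genes rose. Over all genes tested the shares were 5.92% and 5.88% lower and 5% and 3.69% higher, so 2 of 30 was near the background. Loop extrusion genes gave 0 of 14 called in the CTCF line by limma, with 12 at an unadjusted p under 0.05 and 0 by edgeR and DESeq2, and 1 of 14 lower in the CTCFL line. Zfp zinc finger genes had 25 tested members near restored boundaries, with 0 called in either line by limma, edgeR or DESeq2 and 9 and 16 at an unadjusted p under 0.05. Over all 377, 8 rose and 19 fell in the CTCF line and 10 and 12 in the CTCFL line. Of 79 ribosomal protein genes, 6 were near, with 0 called by any of the 3 tools, and 0 and 4 at an unadjusted p under 0.05, and 1 of the 79 fell, in the CTCFL line.

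Igf2, the imprinted growth factor whose expression depends on CTCF at its control region, was the only gene of the imprinted list tested near a restored boundary. It rose from 2440 and 2590 in CTCF U to 5630, 5020 and 5260 in I and fell to 2060, 2180 and 2270 in ID (1.08 ± 0.07 and −1.29 ± 0.07). In the CTCFL line I against U was 0.13 ± 0.09 (adjusted p = 0.24), a difference between lines that was not tested. LCL ID was higher than LCL I (517 and 620 against 108 and 90.6, 2.51 ± 0.17). Igf2os, an antisense transcript of the same locus that is not on the list and was singled out after its values were seen, changed by 1.25 in CTCF I against U (adjusted p = 0.0011) and by −0.16 (0.83) in the CTCFL line. Reads of the overlapping antisense pair may not be told apart. The Igf2 boundary, at chr7:142720001-142760000, was listed in all 3 other ID lists. Over the genome, 3 of 21 imprinted genes rose and 2 fell in the CTCF line, and 3 fell in the CTCFL line.

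In the CTCF and CTCFL lines, summed levels of embryonic stem cell and primitive endoderm markers were lower in I than in U. Those of trophoblast and fibroblast markers were higher, although few single markers passed the test. All 12 stem cell markers were detected, and their summed normalized count was 201000 to 212000 in CTCF U and 143000 to 159000 in I, and 176000 to 193000 and 133000 to 135000 in the CTCFL line, with 101000 to 107000 in CTCFL ID. Called lower were 3 of 12 and 1 of 12 stem cell markers. Of 3 tested trophoblast markers, 2 rose in the CTCF line, 1 of them Hand1 near a restored boundary (89.3 and 81.8 in U, 199, 203 and 163 in I, 1.13 ± 0.19). In the CTCFL line 0 of 3 were called by limma, edgeR or DESeq2, with 2 at an unadjusted p under 0.05. The summed level of the 4 trophoblast markers was 642 to 697 in CTCF U and 1240 to 1290 in I, and 671 to 797 and 932 to 981 in the CTCFL line. Fibroblast sums were 1120 to 1130 and 1320 to 1500 in the CTCF line, and 845 to 1060 and 1160 to 1340 in the CTCFL line. Primitive endoderm sums were 5430 to 5620 and 4430 to 4920, and 5910 to 6750 and 5150 to 5330. Neural sums overlapped between U and I in the CTCF line. They were 3910 to 4110 in CTCFL U and 5250 to 5820 in CTCFL I. Mesoderm sums overlapped in both lines. For the other lists, 1 of 3 mesoderm markers rose and 1 of 3 neural markers fell in the CTCF line, and called primitive endoderm and fibroblast markers numbered 0 of 6 and 0 of 4 by limma, edgeR and DESeq2 in both lines, with 2 and 2 at an unadjusted p under 0.05 in the CTCF line and 5 and 2 in the CTCFL line. The part of these levels in the RNA counts near restored boundaries was not tested.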

How the data were processed

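Hi-C domain lists (HiCratio and Crane, 40 kb bins, GRCm38/mm10) were deposited with other values, start and end coordinates, that the authors made with Hi-C-bench. Whether a list rests on 1 replicate or on pooled replicates is not given in the sources used here. ChIP peaks were called per replicate by the authors with MACS after Bowtie2 alignment, and their deposited columns hold fold enrichment and −log10 q values. The RNA table deposited by the authors holds signal values, gene counts divided by size factors, after STAR alignment. Trim Galore 0.4.4 and SAMtools 1.3 are in the submitters' processing notes. No column of the authors' own comparisons was used.

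Whole reads were recovered from the RNA values of 36 libraries, with all values whole within 0.1 reads, but not for CTCFL I replicate 2 and CTCFL ID replicate 2. The 36 held 6847072 to 49716771 reads. The design had foreseen raw or normalized counts, and limma 3.58.1 (R 4.3.3) was run on log2(value + 1) for genes with a mean of at least 10 in a line, in 1 fit per line over U, I, D and ID. edgeR 4.0.16 and DESeq2 1.42.0 on recovered reads were alternatives. Of 52459 symbols, 46503 were in GENCODE vM21, whose transcript starts gave distances. On simulated counts for CTCF I against U (16619 genes), 100% of 4-fold and 93% of 2.5-fold changes were recovered, and 100% and 89% for CLC ID against I (15232 genes). Replicates differed by more than sampling noise (chi-square per degree of freedom 1.36 to 47.8), so none was merged.

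FLAG sites were regions with a peak in both replicates (at least 1 bp of overlap). A 14-column motif matrix was started from the CTCF core motif and re-estimated 10 times on all CTCF ID sites, with a score limit that 5% of control windows pass. Python 3.11.15, pandas 2.3.3, scipy 1.17.1, pysam 0.24.0 and matplotlib 3.10.9 were used.

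The boundaries, gene groups and tests were chosen with earlier results of these data known. Genes named are the 12 highest and 12 lowest called in both lines in I against U within 100 kb, ranked by the smaller change, list members called there, and Ctcf and Ctcfl. Boundaries named are the 6 with the highest −log10 q and the one nearest to each named gene. The 10 sequences printed are from the 12 so defined. Alternatives covered the boundary rule, windows, fits, tools and left-out libraries.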

Additional observations from a re-analysis of the deposited data

Results flagged for a closer look

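The change of ID against I differed between the CTCF and CTCFL lines, in 1 limma fit over both lines with an interaction contrast, for 54 genes with a start site within 100 kb of a restored boundary, 4.04% of the 1338 tested against 3.24% of all genes. Each line is 1 clone, so line and transgene cannot be told apart.

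Among the named genes, 4 were in this group, each with a smaller or more negative change in the CTCF line. The difference, CTCF minus CTCFL line, was −1.41 for Stra8 (adjusted p = 2.8e-09), −1.23 for Ppa2 (0.00011), −2.18 for Iqgap2 (2.9e-09) and −1.72 for Igf2 (5.3e-10).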

How the results depend on the processing

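With 1 Hi-C list per condition, ChIP libraries of unknown depth and RAD21 replicates that differed widely, shares of boundaries are descriptions only. Between 20 and 80 kb of tolerance, or with CTCF U as the reference, the restored boundaries stayed within 1.5 times 659. With both edges of every domain they numbered 1235, and from the Crane lists 1295, whose edges often miss the HiCratio bin. CTCF ID sites were then at 70.1% and 34.1%, and in Crane boundaries retention was 35.8% in CLC ID, 35.6% in LCL ID and 29% in CTCFL ID. Lying between Crane domains, added after the data were seen, gave 53.7%, 56.1% and 51.7%. With 20 kb of tolerance CTCFL ID retained 16.3%. The share with a CTCF ID site was 53% within 10 kb and 91% within 40 kb, and a motif match within 100 bp was found for 82.7%. Leaving out a FLAG replicate gave 74.7% to 77.5%.

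Counting start sites within 40 or 200 kb instead of 100 kb gave 94 and 304 called genes in CTCF I against U, 89 and 271 in CTCFL I against U, 43 and 136 in CTCF ID against I, 63 and 200 in CTCFL ID, 73 and 217 in LCL ID, 20 and 51 in CLC ID, and 23 and 89 for the difference between lines, by construction of the windows. Leaving out 1 RNA library at a time gave 156 to 196, 147 to 166, 70 to 87, 92 to 119, 106 to 118, 10 to 65 and 45 to 57 in that order. Only CLC ID against I moved by over 1.5 times under other fits. It gave 67 in 1 fit over the 4 lines and 59 with DESeq2. In the CLC I and CLC ID libraries alone limma called 0, with 309 genes near restored boundaries at an unadjusted p under 0.05, while edgeR on recovered reads called 32 with all groups. The cause was not tested. Without the shallow CTCFL D replicate 3, an alternative added later, the CTCFL line's counts stayed within 1.5 times.

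Replicate numbers did not pair the samples: deviations of same-numbered libraries correlated at −0.297 to 0.162, with 3 of 54 over 0.1. A replicate block gave 177, 162, 73, 102, 133, 20 and 52 genes in the order above. Crossing the numbers of CLC ID, added after a negative correlation, gave 32.

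Over the named genes 2203 values were recomputed under alternatives. The direction and the side of the threshold were kept in 2138, 49 lost the call, 16 gained one and 0 of the called changes reversed. Rescaling by TMM shifted the median of all genes by less than 0.1 on the log2 scale.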
